A study of Mus musculus with 2 samples.

Results

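Of the 60086 5-hydroxymethylcytosine (5hmC) peaks called on chromosomes 1 to 19 of mouse embryonic fibroblasts (MEFs) at passage 0, 4581 shared at least 1 base with a peak called at passage 5. These retained peaks made up 7.62% of the autosomal passage 0 peaks. The share rose with passage 0 width, from 5.34% below 1 kb to 11.7% from 1 to 1.5 kb and 22.1% from 2 to 3 kb. From the side of passage 5, 4688 of 6700 autosomal peaks, or 70.0%, touched a passage 0 peak. With the other chromosomes, 60157 peaks were listed at passage 0 and 6726 at passage 5. The overlap between the lists chose the retained peaks, so the values below describe them and no test is given. The cells were C57BL/6 MEFs from embryos at day 13.5, grown in high-glucose medium with fetal calf serum and harvested at passage 0 or at passage 5. There was 1 library at each passage, and the labels name no treatment, transgene or genotype and do not say how many embryos or cultures stood behind a library. Peak lists carry no expression values, so the fibroblast label was not tested against marker genes.

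5hmC is made from 5-methylcytosine by the TET dioxygenases and is an intermediate of active DNA demethylation as well as a lasting mark. In many cell types it lies over gene bodies and enhancers, and its level is generally lower in dividing cultured cells than in tissues. Here it was measured by GLIB, in which the hydroxymethyl group is glucosylated, tagged with biotin and pulled down, so a peak is a stretch of DNA fragments enriched for the mark and not a modified base. Positions are in mm9, counted from 1. The score of a peak is the authors' own value and is used to rank peaks within 1 list, and as a cutoff in the closing section. Read depth is unknown for both libraries, and shares carry 95% exact binomial (Clopper-Pearson) intervals, which reflect counting error alone and take each peak as an independent unit.

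Retention was partial within most retained peaks. Passage 5 peaks covered 2.67 Mb of the 5.31 Mb that the retained peaks spanned, or 50.4%. The median retained peak was covered over 55.0% of its bases, with quartiles of 42.4% and 68.3%. At least 50% of the bases were covered in 2774 peaks, which is 60.6% of them (59.1% to 62.0%). At least 90% were covered in 204 peaks, or 4.45% (3.87% to 5.09%), and 45 peaks were covered completely. At the other end, 234 peaks were covered over less than 25%, or 5.11% (4.49% to 5.79%). The uncovered part of a retained peak had a median of 440 bp.

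A peak close to the median in width, cover and position shows the common layout. It was chosen for that after its values were seen. The passage 0 peak chr7:117966780-117967795 was 1016 bp wide and had a passage 5 peak at bases 117967017 to 117967570, which left 237 bases uncovered on the left and 225 on the right. The covered part was 54.5%.

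The covered share fell with the passage 0 width, while the passage 5 peak had nearly the same width whatever the width of the peak around it. The retained peaks were cut into 10 width classes of about equal size. In the narrowest class, 373 to 704 bp, the median width of single passage 5 peaks was 536 bp. In the widest, 1765 to 21069 bp, it was 589 bp. The median covered part fell from 77.5% (quartiles 64.9% and 88.4%) in the narrowest class to 28.9% (23.0% and 37.3%) in the widest. It was lower in each class than in the next narrower one. Over the 4490 retained peaks with 1 passage 5 peak, the Spearman correlation across peaks was 0.20 between both widths and -0.69 between passage 0 width and covered percent. The second value holds the width on both sides, and peaks are not independent replicates.

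**Figure D1:**
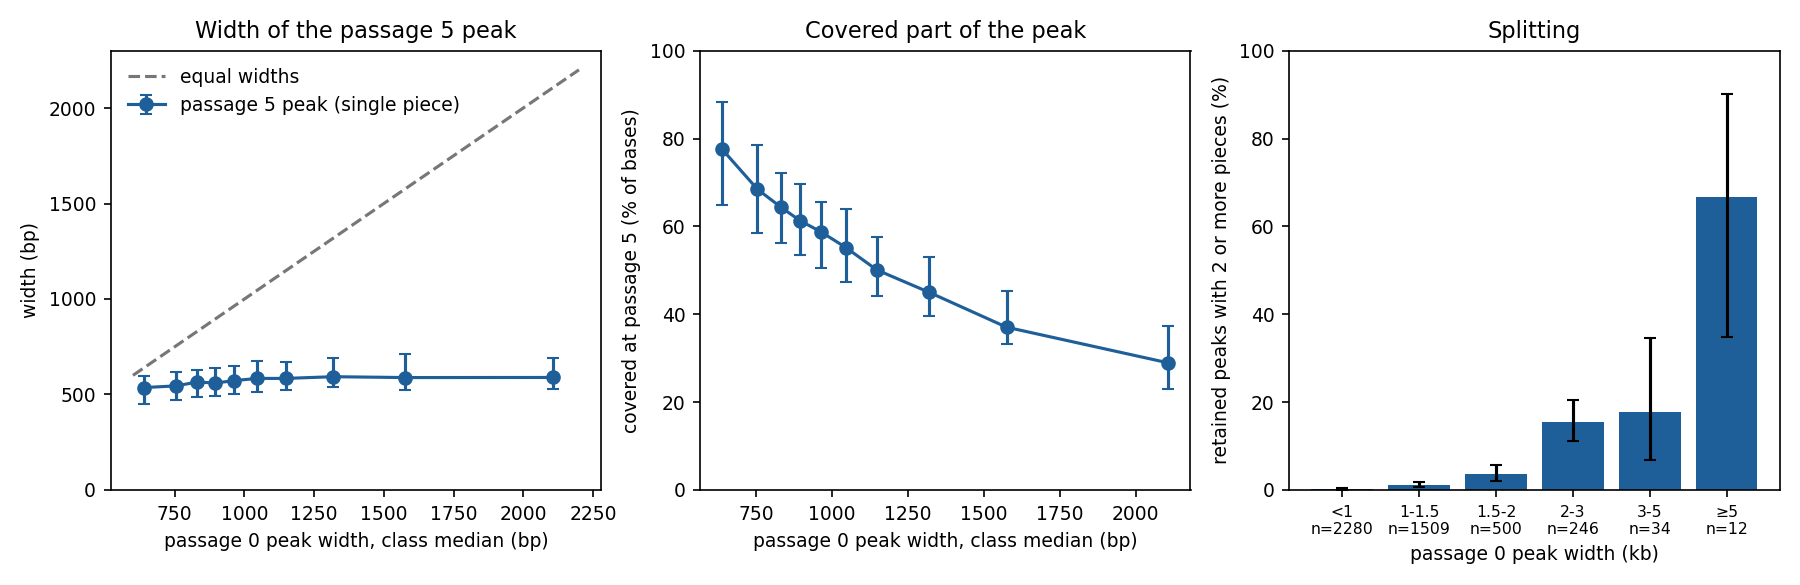
Left, width of the single passage 5 peak in bp, and middle, covered percent of the passage 0 peak, both against the median passage 0 width of 10 classes of retained peaks (points are medians, bars the quartiles, the dashed line marks equal widths). Right, percent of retained peaks with 2 or more passage 5 peaks by passage 0 width in kb, with 95% exact intervals. The passage 5 width stays between 536 and 593 bp, the covered part falls from 77.5% to 28.9%, and splitting is rare below 2 kb.

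Among retained peaks of like width, the covered share differed little with passage 0 score. Retained peaks of 800 to 1200 bp were cut into 4 equal classes by passage 0 score. The lowest class had a median covered part of 60.7% (quartiles 51.2% and 69.3%) and the highest 55.7% (48.7% and 66.2%). The quartiles overlapped widely, and the median widths of these classes still differed, at 878 and 1069 bp. The passage 5 peaks in them had median widths of 563 and 588 bp. Ranks within the lists were loosely related. The Spearman correlation between the passage 0 and the passage 5 score over the 4490 peaks was 0.11, while passage 0 width and passage 0 score had one of 0.81.

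The passage 5 peak usually lay wholly inside the passage 0 peak. This was so in 3521 retained peaks, 76.9% of them (75.6% to 78.1%). The passage 5 call ran past the first base alone in 501 peaks, past the last base alone in 514, and past both in 45. The median overhang was 62 bases at the start, over all 546 peaks overrun there, and 80 bases at the end, over all 559. Narrow peaks were overrun more often. The inside share was 43.0% in the narrowest of the 10 width classes and 90.6% in the widest. Single passage 5 peaks had median widths of 536 and 589 bp in these classes, so a narrow peak left less room. This contrast is therefore not a separate result. Both ends were trimmed alike: where a single passage 5 peak lay inside, the median uncovered stretch was 231 bases on the left and 226 on the right.

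The retained call was concentrated near the middle of the passage 0 peak. Of the 4490 single passage 5 peaks, 3182 had their midpoint in the middle 33.3% of the passage 0 width, which is 70.9% (69.5% to 72.2%). Another 600 lay in the stretch before it and 627 in the stretch after it, and 81 had a midpoint outside the passage 0 peak altogether. The passage 0 midpoint itself was covered in 3795 peaks, or 84.5% (83.4% to 85.6%). The midpoints of both peaks were a median of 99.5 bases apart. A passage 5 peak that fills most of its passage 0 peak cannot lie far from the middle. For the 3462 single passage 5 peaks wholly inside, position was therefore also measured as the left uncovered gap in percent of the left and right gaps together. An even spread would put 33.3% in the middle 33.3% of that range, and 43.2% lay there (41.6% to 44.9%).

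Position depended on the width of the passage 0 peak. In peaks of 1000 to 1500 bp, 641 of 1285 inside calls, or 49.9% (47.1% to 52.7%), lay in the middle 33.3% of the range. In peaks of 1500 to 2000 bp it was 128 of 445, or 28.8% (24.6% to 33.2%), and in peaks of 2000 bp or more 61 of 226, or 27.0% (21.3% to 33.3%). Both of these shares were below the 33.3% of an even spread, but their intervals ended barely under it, so the shortfall is slight. Split peaks and calls that ran past a border are not in these counts. Both sides were used alike in the 1500 to 2000 bp class, with 35.3% before and 36.0% after the middle. In that class the gap to the nearer border had a median of 272 bases (quartiles 165 and 376) and the gap to the farther border 779 bases (665 and 951). In peaks of 2000 bp or more these medians were 396 and 1333 bases.

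**Figure D2:**
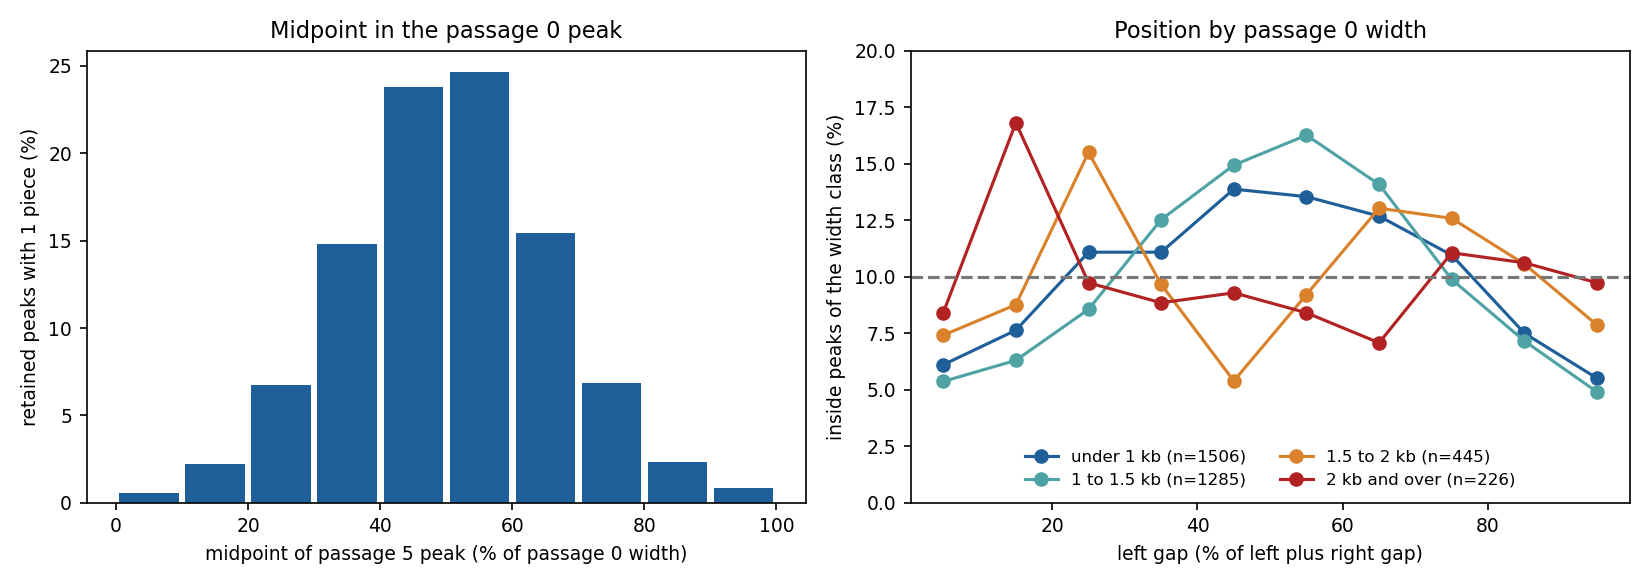
Left, percent of the 4490 retained peaks with 1 passage 5 peak by the place of its midpoint, in percent of the passage 0 width (81 with a midpoint outside are not drawn). Right, percent of inside calls by the left gap in percent of both gaps, in 4 classes of passage 0 width, where the dashed line marks an even spread. Calls in peaks below 1.5 kb are most frequent at the middle, and those in peaks of 1.5 to 2 kb are least frequent just left of it, at 5.39%.

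Several wide peaks kept a single narrow call. Named here are the 5 peaks of at least 2 kb with 1 piece and the lowest covered part, which ran from 9.92% to 11.4%. The passage 0 peak chr11:86390846-86396569, with a score of 2263, was 5724 bp wide and kept 568 bp at bases 86395150 to 86395717, 4304 bases from its start and 852 from its end. The peak chr6:31029244-31033213 was 3970 bp wide and kept 426 bp, 281 bases from its start. The peak chr4:134223961-134228735 was 4775 bp wide and kept 543 bp, 621 bases from its end. In the peak chr3:9750505-9753770, 364 of 3266 bp remained, with a midpoint at 74.9% of the width. In chr11:62927381-62930204, 306 of 2824 bp remained with gaps of 910 and 1608 bases, and this midpoint, at 37.6%, lay within the middle 33.3% of the width. All 5 had passage 0 scores of 611 to 2263, above the upper quartile of 335 among retained peaks of any width. Score rose with passage 0 width (Spearman 0.81 over retained peaks with 1 piece), and these 5 were taken from peaks of at least 2 kb. Their scores were not compared with peaks of like width, so a high score is not read as a trait of low cover. Their passage 5 calls had scores of 102 to 134 in a list whose lowest score is 81.5. Scores of the passage 0 and passage 5 lists are not comparable, so no change in strength is read from them.

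Only a few wide peaks stayed covered almost whole; of the 204 peaks covered over at least 90%, the 5 widest were taken. The widest retained peak with at least 90% covered was chr17:39979521-39985919, at 6399 bp, with 1 passage 5 peak over 95.3% of it and the score of 3100 in both lists. The same value recurs in peaks of unlike width, among them chr2:98506249-98507635 in both lists, so it was not read as equal strength. Neither reads nor an input control were at hand to examine the peaks with this score. A peak near the start of chromosome 9 and a peak on chromosome 2 were also covered by a single call. The peak chr9:2999856-3001613 was 1758 bp wide and covered over 99.5%, and chr2:98506249-98507635 was 1387 bp wide and covered over 99.9%. The remaining pair was covered by 2 pieces each. The peak chr5:112709480-112711363 had 91.9% of its 1884 bp covered, and chr18:65864417-65866041 had 90.3% of its 1625 bp.

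Splitting of a passage 0 peak into several passage 5 peaks was uncommon. A single passage 5 peak was present in 4490 retained peaks, 2 in 83, and 3 or more in 8. Split peaks were 1.99% of the retained peaks (1.60% to 2.43%). Their share was 0.175% among peaks below 1 kb (4 of 2280) and 1.13% from 1 to 1.5 kb (17 of 1509). It was 3.60% from 1.5 to 2 kb (18 of 500) and 15.4% from 2 to 3 kb (38 of 246). At 5 kb and above, 8 of 12 peaks were split, an interval of 34.9% to 90.2%, but 6 of these 12 lay in the stretch of chromosome 11 described next, and without it 2 of 6 were split. The median split peak was 2147 bp wide, against 994.5 bp for peaks with 1 piece. The gaps between neighbouring pieces had a median of 275 bases (quartiles 127 and 549). The median covered part was 54.4% in split peaks and 55.0% in peaks with 1 piece, which were narrower. At like width split peaks were covered more: from 2 to 3 kb the median was 49.2% (quartiles 44.1% and 57.8%) in the 38 split peaks and 25.5% (21.5% and 30.1%) in the 208 with 1 piece. Split peaks hold at least 2 passage 5 peaks by definition, and passage 5 widths varied little, so this contrast is not a separate result.

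The peaks with the most pieces lay in 1 stretch of chromosome 11. Between bases 3031534 and 3100128, 8 successive passage 0 peaks were all retained and all split. The peak chr11:3059258-3080326, with a score of 3100, was 21069 bp wide and held 13 passage 5 peaks of 446 to 1205 bp, separated by gaps of 113 to 2165 bases. They covered 46.5% of it. The peak chr11:3041183-3048915 held 7 pieces over 67.4% of 7733 bp. The peaks chr11:3031534-3041136 and chr11:3052167-3059044 held 6 each, over 52.0% and 60.1%. The peak chr11:3080794-3090835 held 5 over 36.2%. The passage 5 peak at bases 3040949 to 3041905 bridges chr11:3031534-3041136 and chr11:3041183-3048915 and is counted as a piece of both. The passage 0 scores of the 8 peaks ran from 562 to 3202. Their pieces had scores of at most 585 within the passage 5 list, which are not comparable with the passage 0 scores.

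Outside that stretch, 1 retained peak had 3 pieces and none had more. It lay on chromosome 13 at bases 52063459 to 52066144, was 2686 bp wide with a score of 1190, and held pieces of 580, 422 and 569 bp that covered 58.5% of it. The passage 5 scores of these pieces were 102.2, 102.8 and 103.1, where the lowest score of that list is 81.5. The highest-scoring peaks with 2 pieces were chr5:114818899-114825711, where 12.9% of 6813 bp was covered, and chr17:5975010-5979362, where pieces of 537 and 896 bp covered 32.9% of 4353 bp. These 3 were chosen after the values on chromosome 11 were seen. The reverse case, 1 passage 5 peak across a gap between passage 0 peaks, occurred 14 times among the 4688 passage 5 peaks that touched a passage 0 peak, and none of them touched more than 2.

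**Figure D3:**
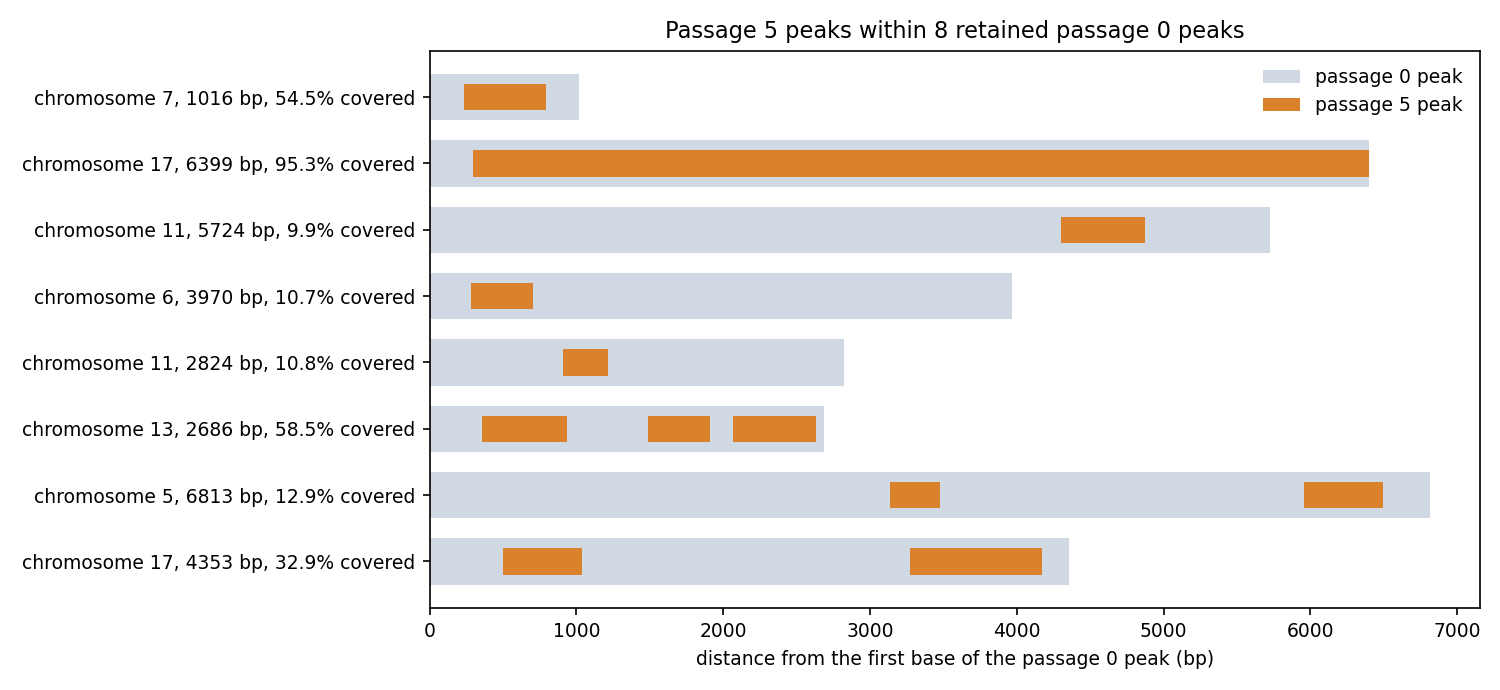
Passage 0 peaks (pale bars) and the passage 5 peaks in them (orange) for 8 retained peaks, drawn to scale in bp from the first base of the passage 0 peak. From the top are the peak near the median, the widest with at least 90% covered, and 3 of those with the lowest cover. Last are 3 split peaks outside the first 4 Mb of chromosome 11, ranked by pieces and then by score. The first of these has 3 pieces and the others have 2, as 83 retained peaks do. The 3 single calls with the lowest cover have midpoints at 80.2%, 12.4% and 37.6% of the passage 0 width, that of the widest well-covered peak is at 52.3%, and the pieces of the 3 split peaks are 342 to 896 bp wide.

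At the border of the rule, few peaks were decided by a handful of bases. The smallest overlap was 2 bases, at chr6:145393705-145394645, followed by 9 bases at chr17:28903725-28904476 and 14 bases at chr2:157919667-157920998. Their passage 0 scores were 127, 106 and 215. Fewer than 100 bases were shared in 34 retained peaks, or 0.742%. Just outside the rule, chr5:137818957-137820262 had 4 bases between it and the nearest passage 5 peak, and chr3:9716575-9718551 and chr15:54167182-54167880 had 5 each. A passage 5 peak lay within 100 bases of 50 of the 55505 passage 0 peaks that were not retained.

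Retained peaks were spread over all 19 autosomes at similar shares. The share of passage 0 peaks retained ran from 6.64% on chromosome 18 (5.67% to 7.71%) to 8.78% on chromosome 7 (7.77% to 9.87%). The interval of chromosome 7 lay above the share of 7.62% over all autosomes, and the other 18 intervals held it. The median covered part ran from 50.6% on chromosome 18 to 58.4% on chromosome 3, and the inside share from 74.1% on chromosome 6 to 81.7% on chromosome 14. Along the chromosomes, the span between the first and the last passage 0 peak was cut into 10 equal parts. The share retained lay between 7.42% and 8.32% in the first 9 parts and was 6.97% in the last (6.49% to 7.46%). That last part held the most passage 0 peaks, 10808, and 753 of them were retained.

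The share retained was similar across local densities for peaks as deposited in 1 Mb windows, though not under every setting. Passage 0 peaks were cut into 4 classes of about equal size by the number of passage 0 peaks in their 1 Mb window. The share was 7.51% in windows of 1 to 30 peaks (7.10% to 7.93%), 7.57% with 31 to 48, 8.07% with 49 to 71 (7.65% to 8.51%) and 7.31% with 72 to 149 (6.89% to 7.75%). The densest class minus the sparsest was -0.20 percentage points (-0.79 to 0.40). Windows of 100 kb gave a difference of 1.12 points (0.549 to 1.70), and peaks merged within 1 kb gave 0.807 (0.139 to 1.48), so an excess in dense surroundings appeared under either of these settings. The covered part was lower in dense windows, with a median of 51.6% in the densest class against 60.0% in the sparsest. Passage 0 peaks were wider there, with medians of 892 and 806 bp, and the part of width in this difference was not tested.

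**Figure D4:**
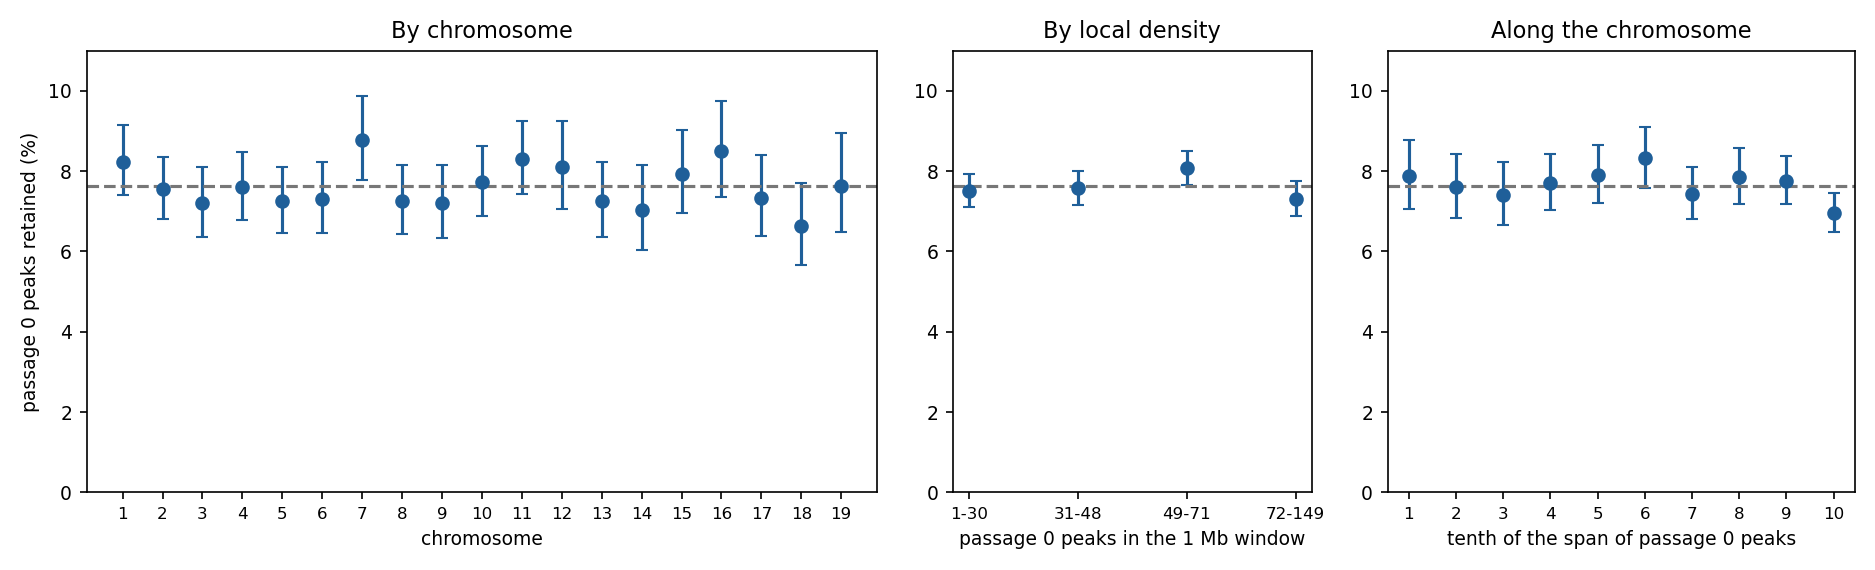
Percent of passage 0 peaks retained, with 95% exact intervals, by chromosome, by the number of passage 0 peaks in the 1 Mb window of the peak, and by position in 10 equal parts of the span between the first and last passage 0 peak. The dashed line is 7.62%, the share over all autosomes. Shares lie between 6.64% and 8.78% in all 3 panels.

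Retained peaks were widely spread over the genome. They lay in 1390 of the 2102 windows of 1 Mb that held a passage 0 peak. Among the 1129 windows with at least 20 passage 0 peaks, the median share retained was 7.32% (quartiles 3.92% and 10.5%), and 99 windows had none. The densest window without a retained peak was at 110 to 111 Mb of chromosome 8, with 94 passage 0 peaks. The spread of shares over these windows had an SD of 5.17 percentage points, and counting error alone at the overall share gives a mean SD of 4.21. The latter averages the SDs of windows with unequal peak numbers. It lies below the SD that counting error gives for all of them pooled, so the contrast overstates any excess.

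The window with the most retained peaks was at 167 to 168 Mb of chromosome 2, where 20 of 125 passage 0 peaks were retained, or 16.0% (10.1% to 23.6%). Another 4 windows held 15 each. These lay at 134 to 135 Mb of chromosome 4 (of 100 peaks), at 11 to 12 Mb (of 102) and 126 to 127 Mb (of 71) of chromosome 8, and at 117 to 118 Mb of chromosome 11 (of 109). The highest share among windows with at least 20 passage 0 peaks was at 71 to 72 Mb of chromosome 7, where 8 of 20 were retained, or 40.0% (19.1% to 63.9%). It was followed by 91 to 92 Mb of chromosome 5 with 9 of 33 and 45 to 46 Mb of chromosome 16 with 7 of 26. These windows were picked for their high values, which favours wide departures from the overall share.

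Retained peaks lay next to each other more often than their overall share, at short range. Where the next passage 0 peak on the chromosome was less than 5 kb away and was itself retained, 281 of 1877 peaks were retained, or 15.0% (13.4% to 16.7%). Where that next peak was not retained, it was 1702 of 21089, or 8.07% (7.71% to 8.45%). The difference was 6.90 percentage points (Newcombe interval 5.31 to 8.62). Across gaps of 5 kb and more it was 2.13 points (1.07 to 3.30). At gaps under 1 kb the shares were 16.4% and 7.41%, and at gaps of 100 kb or more 7.34% and 6.43%, where the intervals overlapped.

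The difference between neighbours was also present without pairs that share 1 passage 5 call and at other scores. Without the 14 pairs on 1 passage 5 peak, the share next to a retained peak was 14.3% within 5 kb. Within 5 kb the share was higher beside a retained peak in each of the 10 classes of passage 0 score, by 0.958 to 9.64 points. In the lowest and the fourth score class the interval of the difference reached below 0. In the highest class the shares were 33.0% and 24.8%. With both chromosome starts left out, on chromosomes 9 and 11 below 4 Mb, the share within 5 kb was 14.1% beside a retained peak and 8.07% beside another.

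**Figure D5:**
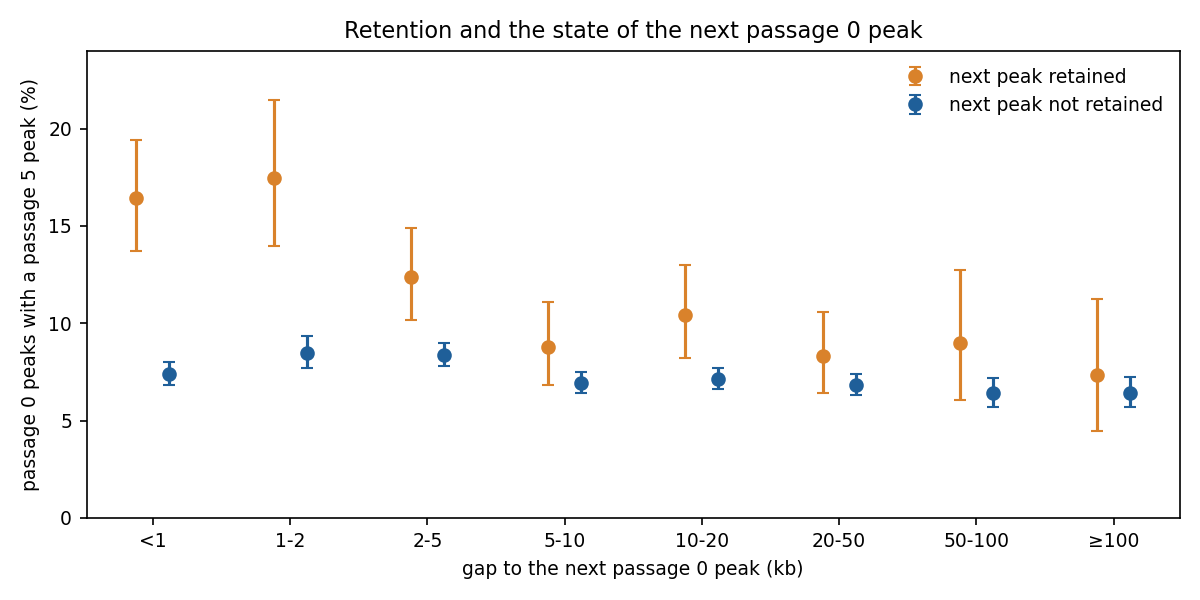
Percent of passage 0 peaks with a passage 5 peak, with 95% exact intervals, by the gap in kb to the next passage 0 peak, separately where that next peak was retained (orange) or not (blue). The groups are 16.4% and 7.41% at gaps under 1 kb, and their intervals overlap at 5 to 10 kb and from 20 kb on.

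Long series of retained peaks were nevertheless rare. Of the retained peaks, 3606, or 78.7%, had a retained peak neither before nor after them among the passage 0 peaks, and 818 formed pairs. There were 13 runs of 4 or more. The longest was the run of 14 at chr9:2999856-3038395, which took in every passage 0 peak in the first 4 Mb of that chromosome. Its peaks were 460 to 1758 bp wide and were covered over 84.7% to 100%, with a median of 98.7%. Their borders nearly coincided with those at passage 5: of the 28 borders, 19 differed by no more than 20 bases, and the median difference was 7.5 bases. The second was the run of 8 on chromosome 11 described above, where the covered parts were 36.2% to 80.5%. Both runs differ from the other retained peaks in cover or splitting, and neither reads nor an input control were at hand to examine them.

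The next longest run was on chromosome 7. At chr7:125622367-125652606, 5 successive passage 0 peaks were retained over 30.2 kb, with covered parts of 29.4% to 95.0% and a median of 40.8%, below the lower quartile of 42.4% over all retained peaks. The first of them, chr7:125622367-125624327, was 1961 bp wide and kept a call at its end, with 74 bases uncovered on the right and 1291 on the left. The last, chr7:125650601-125652606, was 2006 bp wide and also kept a call at its right end, with gaps of 1284 and 133 bases. Between them, chr7:125637375-125637876 was 502 bp wide and covered over 95.0%. The remaining named runs held 4 peaks each, at chr1:39312682-39344671 with covered parts of 41.3% to 71.2% and at chr1:183997639-184020446 with 19.5% to 55.9%. They are the first in chromosome order of 10 runs of that length and do not stand for the others.

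Further passage 5 peaks lay near retained peaks more often than near the others. Within 5 kb, but outside the peak itself, a further passage 5 peak was found for 721 retained peaks, or 15.7% (14.7% to 16.8%), and for 4819 of the 55505 peaks not retained, or 8.68% (8.45% to 8.92%). Within 1 kb the shares were 4.02% and 1.87%. Retained peaks also had a passage 0 neighbour within 5 kb slightly more often, at 62.2% against 57.1%. These shares are not independent of the neighbour values above, since they rest on the same passage 5 peaks. Retained peaks were also wider than the others, with median widths of 1003 and 839 bp, and had higher passage 0 scores, with medians of 214 and 125. The part of width and score in these contrasts was not tested.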

How the data were processed

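Per the submitters' processing notes, CASAVA 1.8, Bowtie 0.12.7, MACS 1.4.1 and build mm9 were used; their roles and settings, duplicate handling, any input control and the peak threshold are not stated there. Each library has 1 deposited list, in which every peak has positions and a score. Starts count from 0 in the deposited lists and were raised by 1 here. Depth is unknown, and with 1 library per passage no p-value is given.

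Peaks on chromosomes 1 to 19 were paired by at least 1 shared base. bedtools 2.31.1 gave the same 4581 retained peaks. On 5000 simulated peaks, 1000 of them retained, membership, pieces and cover were returned for all 5000. Every simulated passage 5 peak lay inside its passage 0 peak, so overhanging and shared calls were not simulated. Covered part is the percent of passage 0 bases under passage 5 peaks. Windows were assigned by midpoint. Intervals for differences of shares are Newcombe's.

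The retained peaks and the tables on them were chosen with earlier results of these data known. Named regions are the first 5 by score, pieces, width at 90% or more cover, lowest cover at 2 kb or more, run length, and window count or share, with 3 on each side of the overlap rule. The gene feature and sequence description that was planned was not run, because no mm9 genome or annotation was used here. Alternatives are given in the closing section. Python 3.11.15, numpy 2.4.6, pandas 2.3.3, scipy 1.17.1 and matplotlib 3.10.9 were used.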

Additional observations from a re-analysis of the deposited data

How the results depend on the processing

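Of 48 recomputed values for 8 results, 32 stayed within the 95% interval around the main one, 16 left it and 0 reversed a called difference. For cover by bases the interval takes retained peaks as the units, as if each were covered wholly or not at all. It is therefore only a rough yardstick for that result. With at least 50% of the shorter peak shared, the inside share was 78.4%. With scores of at least 100 in both lists, it was 79.7%, and midpoints in the middle were 72.7%. Scores are not comparable between the lists, so this cutoff need not be a like filter at both passages. Merging peaks within 1 kb moved 7 results: 8.56% were retained, the median cover was 50% and that over all bases 37.7%, midpoints in the middle came to 60.6%, the inside share to 79.0%, split peaks to 1.35%, and the density difference to 0.807 points. Among peaks of 800 to 1200 bp the median cover was 58.1% and 0.502% were split. The middle 50% of the width held 86.6% of midpoints, and the middle of the gap range 43.2%. Windows of 100 kb gave a density difference of 1.12 points. The neighbour difference was 4.12 points over all gaps and 6.90 within 5 kb. The cause of the other shifts was not tested. Leaving out windows with passage 5 scores of at least 1000, or, chosen after seeing the data, the first 4 Mb of chromosomes 9 and 11, moved none of the 8 results, and split peaks were 82 of 4558 in the latter case. These settings removed few peaks. No paired analysis was possible because there was 1 library per passage. The unknown depth limits every value.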

Other observations

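Outside chromosomes 1 to 19, passage 0 peaks with a passage 5 peak numbered 7 of 65 on the X, or 10.8% (4.44% to 20.9%), 1 of 5 on the Y, and the single peak on the mitochondrial sequence. They entered none of the values above.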
